A study of Mus musculus with 38 samples.

Results

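The regions described here are chromatin sites with no peak of open chromatin in mouse embryonic fibroblasts (MEFs) and a peak late in the culture after delivery of either form of the transcription factor SALL4. They were taken from the ATAC-seq peaks of SALL4-delN12 cells at day 11 with a peak score of at least 100. A peak was kept if it overlapped, by at least 1 base, a peak of SALL4-delN12 cells at day 9 and of SALL4-WT cells at days 9 and 11, and no MEF peak. This left 2121 sites of 78517 peaks in the day 11 list. Of these peaks, 41123 reached the score minimum and 5494 of those had no MEF peak. The 2121 sites were therefore 38.6% of the new peaks, and they are called shared new sites below.

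The study asked how SALL4 turns MEFs into cells that resemble primitive endoderm (PrE), and whether the contact of SALL4 with the NuRD complex is needed. E13.5 MEFs received a retrovirus with the SALL4-WT or the SALL4-delN12 cDNA as the sole factor and were grown in iCD3 medium without BMP4. SALL4-delN12 lacks the N-terminal stretch through which SALL4 binds NuRD. ATAC-seq, which cuts open chromatin with a transposase, and RNA-seq were done at days 1, 5, 9 and 11 in both forms, ATAC-seq also in MEFs, and Cut&Tag, which maps a protein or histone mark along the genome, at day 6 for SALL4 and for the acetylated histone H3K27ac. Each condition was 1 ATAC-seq or RNA-seq library, and the Cut&Tag replicates had been merged before the peaks were called, so conditions were compared as values at single days. A fit of both forms over the 4 days, with the days in the place of replicates, was not run, and no p-value is given. Delivered SALL4, infection and the change of medium differ together between MEFs and every later library, and their parts in the new sites cannot be told apart. The cultures were mixtures, so a site open in few cells and a site weakly open in many cannot be told apart either.

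SALL4 is a zinc finger protein of the early embryo and of germ cells that binds AT-rich DNA and recruits NuRD, which removes acetyl groups from histones and compacts chromatin. PrE is the layer of the blastocyst that gives rise to the yolk sac endoderm, and its cells depend on GATA and SOX factors and lay down a basement membrane rich in laminin and collagen IV. Distal sites that open when a cell changes its identity often carry motifs of the factors at work, and H3K27ac marks active enhancers and promoters.

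The DNA of 10 shared new sites shows the kinds of sequence that these regions hold. The sites near Setd4, Aifm2, Slc16a7 and Fam155a were those with the highest scores outside the Sall4 gene, those near Lama1 and Hnf4a lay within 50 kb of PrE genes, those of Cited1 and Klf4, genes also on the PrE lists, just beyond that distance, and those near Kng2 and Casp1 lay beside genes with large differences in RNA between day 1 and day 11. Each line gives the 200 bases around the centre of the site on the plus strand of mm10, read from the RefSeq copy of that genome. Capitals mark matches, on either strand, to the word GATAA of GATA factors, the word ACAAT of SOX factors, the word TGANTCA of AP-1, the word GGAATG of TEAD factors, the word TGTTTAC of FOX factors and the word ATATT, an AT-rich sequence bound by SALL4.
Setd4 chr16:93553008-93553207: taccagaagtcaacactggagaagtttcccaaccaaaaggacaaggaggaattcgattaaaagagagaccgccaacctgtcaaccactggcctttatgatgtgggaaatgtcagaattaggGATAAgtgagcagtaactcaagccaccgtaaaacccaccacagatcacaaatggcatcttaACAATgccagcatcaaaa
Aifm2 chr10:61751868-61752067: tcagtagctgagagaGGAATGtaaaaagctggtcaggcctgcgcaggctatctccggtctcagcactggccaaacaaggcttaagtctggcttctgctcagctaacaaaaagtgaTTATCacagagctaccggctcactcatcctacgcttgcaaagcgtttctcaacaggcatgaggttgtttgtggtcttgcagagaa
Slc16a7 chr10:125184234-125184433: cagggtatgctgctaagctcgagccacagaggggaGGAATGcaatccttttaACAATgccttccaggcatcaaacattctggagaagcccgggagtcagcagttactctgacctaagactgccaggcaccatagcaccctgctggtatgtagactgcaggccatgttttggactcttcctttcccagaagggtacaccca
Fam155a chr8:9811193-9811392: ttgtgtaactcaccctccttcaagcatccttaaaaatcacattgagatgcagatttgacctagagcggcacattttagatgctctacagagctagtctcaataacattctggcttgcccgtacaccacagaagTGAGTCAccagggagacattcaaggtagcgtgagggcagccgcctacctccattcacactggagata
Kng2 chr16:23032145-23032344: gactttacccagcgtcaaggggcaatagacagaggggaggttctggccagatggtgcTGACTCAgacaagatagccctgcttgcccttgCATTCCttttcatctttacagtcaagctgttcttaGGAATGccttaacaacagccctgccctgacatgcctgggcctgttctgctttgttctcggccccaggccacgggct
Lama1 chr17:67732084-67732283: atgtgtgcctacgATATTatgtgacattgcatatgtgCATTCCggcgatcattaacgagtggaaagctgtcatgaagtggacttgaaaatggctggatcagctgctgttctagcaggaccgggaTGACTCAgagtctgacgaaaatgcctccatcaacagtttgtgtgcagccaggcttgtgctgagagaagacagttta
Cited1 chrX:102305007-102305206: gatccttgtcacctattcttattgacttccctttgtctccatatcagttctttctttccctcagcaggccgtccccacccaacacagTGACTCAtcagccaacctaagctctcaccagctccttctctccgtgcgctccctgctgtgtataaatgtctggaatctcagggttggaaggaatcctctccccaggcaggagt
Klf4 chr4:55480469-55480668: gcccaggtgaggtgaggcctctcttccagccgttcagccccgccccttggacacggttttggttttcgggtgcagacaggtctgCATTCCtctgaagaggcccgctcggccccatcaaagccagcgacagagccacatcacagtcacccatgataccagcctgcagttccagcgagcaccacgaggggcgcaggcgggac
Hnf4a chr2:163532002-163532201: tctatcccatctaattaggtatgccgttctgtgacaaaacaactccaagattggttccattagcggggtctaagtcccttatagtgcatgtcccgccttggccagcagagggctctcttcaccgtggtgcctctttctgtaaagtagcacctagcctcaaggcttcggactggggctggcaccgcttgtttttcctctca
Casp1 chr9:5298298-5298497: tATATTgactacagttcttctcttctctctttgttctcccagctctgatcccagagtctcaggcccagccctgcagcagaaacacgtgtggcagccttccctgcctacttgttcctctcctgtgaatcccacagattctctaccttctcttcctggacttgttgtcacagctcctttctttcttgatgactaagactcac
The Setd4 site held a GATA and a SOX match, the Aifm2 site a GATA and a TEAD match, and the Slc16a7 site a SOX and a TEAD match. AP-1 matches stood in the windows of Fam155a, Kng2, Lama1 and Cited1. The Hnf4a window held none of these words, and the Casp1 window, which lies at the promoter, held ATATT alone.

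The highest score among the 2121 sites needs a caution. It belonged to a peak of 2391 bases at chr2:168754434-168756824, with a score of 742.39 in the SALL4-delN12 list of day 11, that covered exon 2 of Sall4, a gene on the minus strand, and whose start coordinate was that of the exon. A second member at chr2:168750016-168750538 (score 503.64) lay on the last exons of Sall4. The delivered cDNA holds the same exons without the introns, so reads from the virus and from the gene itself cannot be told apart. At exon 2 the scores in SALL4-WT cells were 2961.97, 1745.72, 1010.37 and 774.79 at days 1, 5, 9 and 11. In SALL4-delN12 cells they were 3100, 1426.69, 1340.32 and 742.39 at the same days. The H3K27ac score at this exon in SALL4-WT cells, 1467.26, was the highest of that whole list. The shares of all sites with a day 1, day 5 or Cut&Tag peak moved by at most 0.0721 percentage points when these 2 sites were left out, and other shares were not recomputed without them.

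The working name of these regions calls them late, and the lists of days 1 and 5, which did not choose them, go against that name. Of the 2121 sites, 2110 (99.5%) already had a peak in at least 1 of the 4 early SALL4 lists, 962 (45.4%) had one in all 4, and 11 (0.519%) had none, against 1308 (23.8%) with none among all new peaks of the list. At day 1, SALL4-delN12 cells had a peak at 1655 sites (78%, exact 95% interval 76.2 to 79.8) and SALL4-WT cells at 1185 (55.9%, 53.7 to 58). At day 5 the shares were 90.9% (1928 sites) and 91.7% (1945 sites). The new peaks of the same list as a whole, which include the shared sites, had a peak at day 1 in 49.3% (SALL4-delN12) and 27.4% (SALL4-WT), and at day 5 in 65.4% and 49.6%. Unlike these new peaks, the shared sites were also chosen for peaks in the other late lists of both forms. Their median score in the SALL4-delN12 list of day 11 was 151, against 136.5 for the new peaks. The part of this choice in their higher early shares was not tested. The intervals cover counting error over sites only, and the number of reads behind each list is unknown.

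At day 1 the sites fell into 4 classes, and these classes differed in other readouts below. Both forms had a peak at 1013 sites (47.8%), SALL4-delN12 alone at 642 (30.3%), SALL4-WT alone at 172 (8.11%) and neither at 294 (13.9%). At day 5 both forms had a peak at 1773 sites (83.6%) and neither at 21 (0.99%). In SALL4-WT cells 789 sites (37.2%) had a day 5 peak and no day 1 peak, and in SALL4-delN12 cells 340 (16%), so that the gap between the forms at day 1 had closed by day 5. A peak at day 1 that was missing at day 5 was found at 29 sites in SALL4-WT cells and 67 in SALL4-delN12 cells. The lengths of the lists moved with this gap: the SALL4-WT list was the shorter at day 1 (83821 peaks against 94828) and the longer at day 5 (98422 against 89524), and their part in it was not tested.

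**Figure D1:**
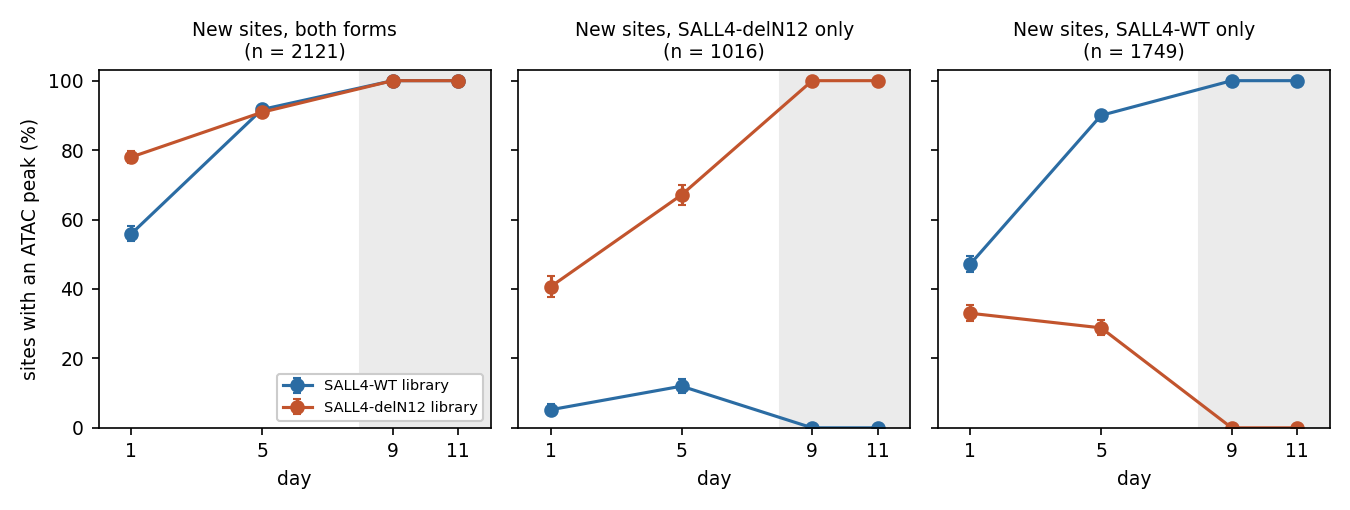
Share of new sites with an ATAC-seq peak (y axis, %) against day (x axis) for the 2121 sites of both forms, the 1016 sites of SALL4-delN12 only and the 1749 sites of SALL4-WT only. Points are 1 library each, bars are exact 95% intervals over sites, and the grey days 9 and 11 were used to choose the sites. The shared sites start at 78% and 55.9% and meet at 90.9% and 91.7% on day 5.

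The plot of shares by day also holds the sites of 1 form only. For comparison, new sites of SALL4-delN12 only had a peak at both late days in that form and at neither in SALL4-WT cells (1016 sites), and new sites of SALL4-WT only were defined the same way from the SALL4-WT day 11 list (1749 sites). Of the former, 40.7% had a SALL4-delN12 peak at day 1 and 67.1% at day 5, below the shared sites in that form, and 25% had none in any early list. Of the latter, 47.2% (44.8 to 49.5) had a SALL4-WT peak at day 1, below the shared sites in that form (55.9%, 53.7 to 58). At day 5, 90% of them had one, against 91.7% of the shared sites, with overlapping intervals. No peak in any early list was found for 6.46% of the sites of SALL4-WT only. In SALL4-delN12 cells 33% of these sites had a peak at day 1, and by the rule none at days 9 and 11.

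Peak scores within the sites ranged widely. The score is that of MACS, for which a higher value means a lower p-value of the peak, and it is not scaled between libraries. The median score of the members in SALL4-WT cells was 118.4 on the first day, over the 1185 sites with a peak, and 191.1, 149.1 and 162.2 at days 5, 9 and 11. In SALL4-delN12 cells it was 170.7, 172.4, 195.9 and 151 at the same days. The quartiles of the members at day 11 were 102.3 and 257.5 in SALL4-WT cells, and the boxes of all days overlap. Ranked within the early lists, which the rule did not use, the median member with a peak stood at percentile 59.7 and 67.9 at days 1 and 5 in SALL4-WT cells and at 69.5 and 73.2 in SALL4-delN12 cells. Just inside the score minimum, 267 members scored from 100.01 to 109.95, and just outside it 326 peaks that met the rest of the rule scored from 90 to 99.97. Their median scores in the SALL4-WT list of day 11 were 123.8 and 129.6.

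**Figure D2:**
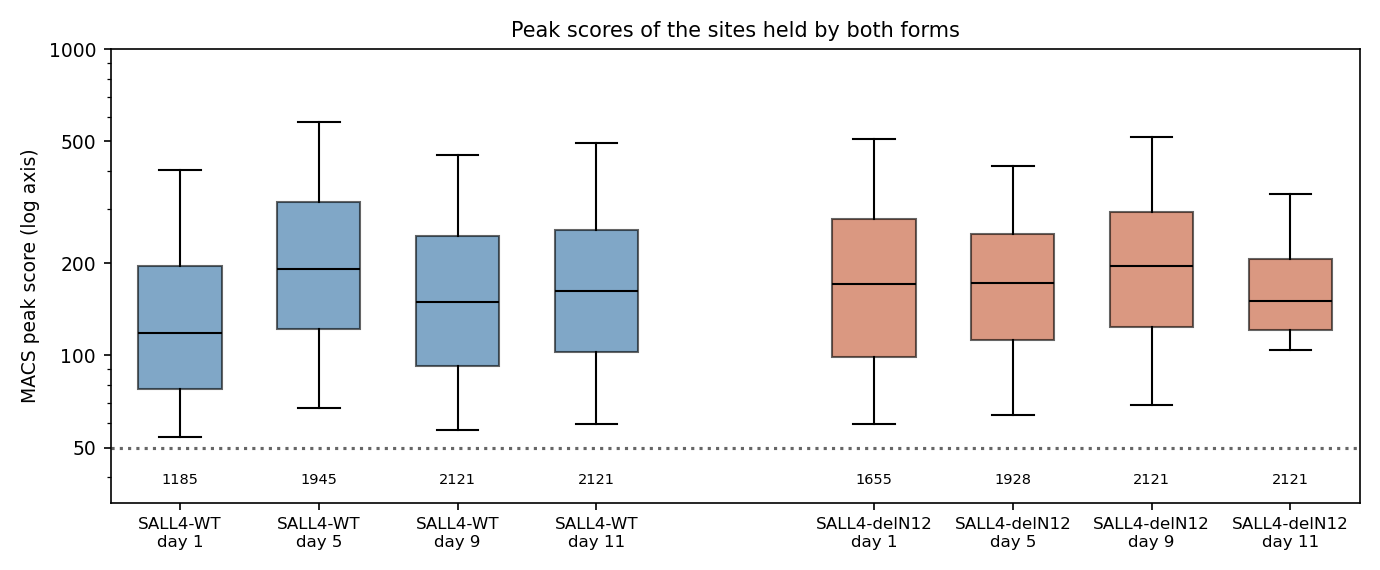
MACS peak scores (y axis, log scale) of the shared new sites in each SALL4 ATAC-seq list. Boxes span the quartiles with the median as a line, whiskers the 5th to 95th percentile, numbers the sites with a peak, and the dotted line the lowest score of the lists, 50. SALL4-delN12 at day 11 starts at 100 because that list chose the sites.

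The 4 highest-scoring sites outside Sall4 illustrate different courses. The site of 943 bases at chr16:93552637-93553579, between genes and 50.7 kb from the start of Setd4, a SET domain methyltransferase, scored 53.48, 211.87, 133.72 and 287.58 at days 1, 5, 9 and 11 in SALL4-WT cells. In SALL4-delN12 cells it scored 377.39, 366.81, 504.28 and 713.91. It had a SALL4 peak in both forms and an H3K27ac peak in SALL4-delN12 cells alone. The site at chr10:125184108-125184559, 124 kb from the start of Slc16a7, a monocarboxylate transporter gene, had no peak at day 1 in either form, and scored 334.45, 134.25 and 622.05 at days 5, 9 and 11 in SALL4-WT cells and 355.61, 429.13 and 652.51 in SALL4-delN12 cells. It had no H3K27ac peak, and a SALL4 peak in SALL4-delN12 cells alone.

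The site at chr8:9810989-9811596, 40.1 kb from the start of Fam155a, which encodes a subunit of a sodium leak channel, was open in both forms from day 1. Its scores were 242.72, 294.22, 439.29 and 408.34 in SALL4-WT cells and 278.06, 499.04, 897.69 and 627.4 in SALL4-delN12 cells, and it had SALL4 peaks in both forms (314.42 and 322.51) and no H3K27ac peak. The site at chr10:61751711-61752224 lay in an intron, 31.3 kb from the start of Aifm2, an oxidoreductase that protects lipids from oxidation. It scored 82.14, 319.28, 335.15 and 671.77 in SALL4-WT cells and 254.02, 395.35, 603.98 and 615.97 in SALL4-delN12 cells.

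The shared new sites were mostly distal. Of the 2116 sites on assembled chromosomes, 175 (8.27%, 7.13 to 9.53) had their centre within 2 kb of a transcription start site, 818 (38.7%) lay in introns, 49 (2.32%) in exons and 1074 (50.8%) between genes. Of all peaks of the list at the score minimum 36.6% were at promoters, and of the 24722 peaks with a counterpart in all 9 ATAC-seq lists 50.6%. New sites of SALL4-delN12 only and of SALL4-WT only were at promoters in 4.92% and 5.95%. The median shared site was 274 bases wide and 31.2 kb from the nearest start, and 784 sites (37.1%) were more than 50 kb away. The sites were scattered: with a gap of 10 kb they formed 2048 loci, of which 1980 held 1 site and none more than 2. They made up between 3.21% (chromosome X) and 6.45% (chromosome 6) of the list's peaks on the chromosomes that held any, and their windows had a median GC content of 49.5%, against 53.5% over the list.

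At day 6 most of the sites carried SALL4 peaks in both forms. SALL4 peaks overlapped 1640 sites (77.3%, 75.5 to 79.1) in SALL4-WT cells and 1579 (74.4%, 72.5 to 76.3) in SALL4-delN12 cells, against 70.7% and 66.5% of all peaks of the list. Both forms had one at 1317 sites (62.1%), SALL4-WT alone at 323 (15.2%), SALL4-delN12 alone at 262 (12.4%) and neither at 219 (10.3%). Over all peaks of the list these shares were 54.6%, 16.1%, 11.9% and 17.4%, so most of the list had SALL4 in both forms too. Among peaks more than 2 kb from a start site, SALL4-WT and SALL4-delN12 cells had a SALL4 peak at 78.9% and 77.5% of the shared sites. For the list these distal shares were 65.5% and 71%. New sites of 1 form had SALL4 mostly in that form: sites of SALL4-delN12 only had a SALL4 peak in 67.3% in SALL4-delN12 cells and 26.6% in SALL4-WT cells, and sites of SALL4-WT only in 23.6% and 70.6%. Cut&Tag peaks were wide, with a median of 899 and 982 bases in the SALL4 lists, so an overlap does not place SALL4 on the site itself.

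H3K27ac at the shared sites was found far more often with SALL4-delN12. H3K27ac peaks overlapped 1398 sites (65.9%, 63.9 to 67.9) in SALL4-delN12 cells and 500 (23.6%, 21.8 to 25.4) in SALL4-WT cells. Counting only Cut&Tag peaks with a score of at least 100, the shares were 47.9% and 11%. With all listed peaks, both forms had the mark at 436 sites (20.6%), SALL4-delN12 alone at 962 (45.4%), SALL4-WT alone at 64 (3.02%) and neither at 659 (31.1%). Over all peaks of the list these shares were 43.2%, 30.4%, 1.48% and 24.9%. The mark in SALL4-delN12 and SALL4-WT cells lay on 73.7% and 44.7% of all peaks of the list. Among its distal peaks it lay on 64.1% and 24.8%, against 65.9% and 21.9% of distal shared sites. Among distal peaks with a score under 150 it lay on 50.9% and 15.8% of the list. The distal shared sites under that score had it in 58.3% (55 to 61.4) and 20.1% (17.6 to 22.8). Of all new peaks of the list, which include the shared sites, 43.1% and 12.6% had the mark. New sites of SALL4-delN12 only had the mark in 34.4% in SALL4-delN12 cells and 4.72% in SALL4-WT cells. New sites of SALL4-WT only had it in 24.1% and 15.1%, in the same order. The gap between the forms was thus seen over the whole list and also in the sites of SALL4-WT only. The H3K27ac list of SALL4-WT cells held 19841 peaks against 45599 in SALL4-delN12 cells, and the part of these lengths in the gap was not tested. Within SALL4-delN12 cells, the mark lay on 70.4% of the shared sites with a SALL4 peak in either form and on 26.9% of the sites without one, and within SALL4-WT cells on 25.3% and 8.22%. The same split was seen over all peaks of the list, with 81.6% and 36.1% in SALL4-delN12 cells and 50.2% and 18.4% in SALL4-WT cells.

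The day 1 classes of the shared sites differed in their day 6 marks. Sites with a day 1 peak in both forms had a SALL4 peak in 92.5% in SALL4-WT cells and in 80.5% in SALL4-delN12 cells. Sites with a day 1 peak in SALL4-delN12 alone had one in 69% and 86%, sites with a day 1 peak in SALL4-WT alone in 69.8% and 40.1%, and sites with none at day 1 in 47.6% and 48.6%. The form with the earlier ATAC-seq peak was thus the form in which SALL4 was found more often, by 17 percentage points for SALL4-delN12 and 29.7 for SALL4-WT. Promoters made up 6.81%, 6.7%, 15.1% and 12.6% of the classes in the same order. Shared sites at promoters had a SALL4 peak in 60.6% in SALL4-WT cells and in 41.1% in SALL4-delN12 cells. The part of place in the class differences was not tested. Median member scores in the 4 classes were 153.3, 158.6, 143.5 and 135.7, and among members below the median score of all sites the share with a SALL4 peak in SALL4-WT cells was still 90.8% for sites early in both forms and 45.3% for sites early in neither. H3K27ac in SALL4-WT cells marked 32.7% of sites early in both forms, 28.5% of those early in SALL4-WT alone, 12% of those early in SALL4-delN12 alone and 14.6% of the rest. In SALL4-delN12 cells the mark was on 75.4%, 37.2%, 68.1% and 45.2% in the same order.

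**Figure D3:**
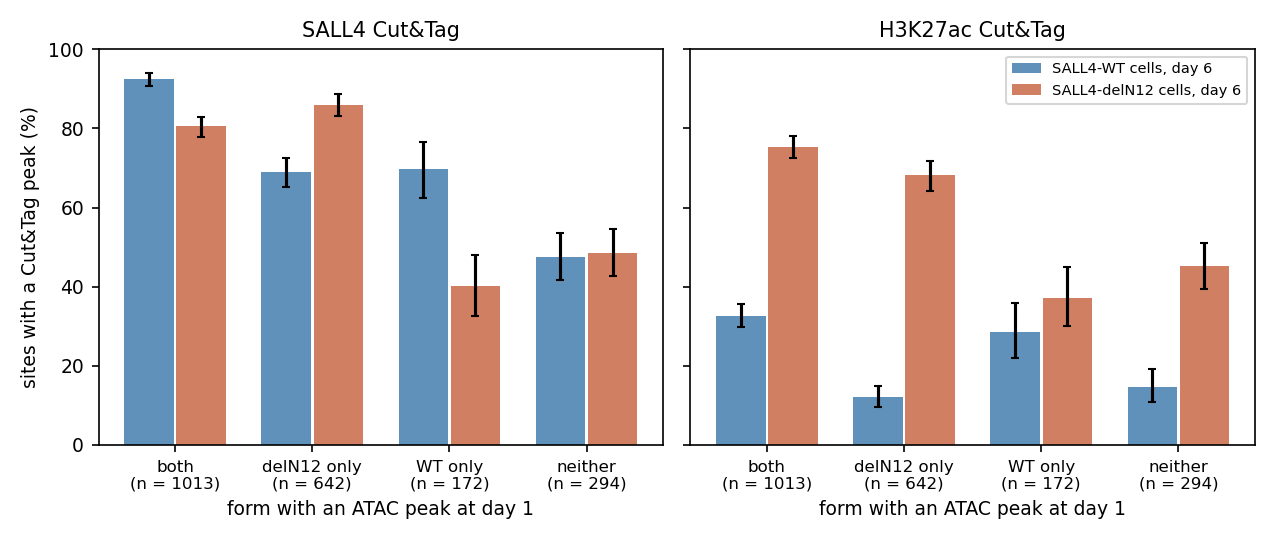
Share of shared new sites with a SALL4 (left) or H3K27ac (right) Cut&Tag peak at day 6 (y axis, %), by the form that had an ATAC-seq peak at day 1 (x axis, with the number of sites). Bars are merged libraries of SALL4-WT or SALL4-delN12 cells and error bars exact 95% intervals over sites. In SALL4-WT cells SALL4 was most frequent at sites early in both forms (92.5%) and least frequent at sites early in neither (47.6%), and in SALL4-delN12 cells most frequent at sites early in SALL4-delN12 alone (86%) and least at sites early in SALL4-WT alone (40.1%).

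Motif words were counted on both strands in the 200 bases around the centre of each site. The AP-1 word TGANTCA, bound by FOS and JUN factors, was in 32% of the shared sites against 22.9% of all peaks of the list, the SOX word ACAAT in 31.6% against 21.3%, the GATA word GATAA in 24.2% against 16.2%, and the TEAD word GGAATG in 22% against 18.7%. RUNX (TGTGGTT) was in 11.7% against 7.71% and FOX (TGTTTAC) in 5.81% against 3.07%. The word ATATT was in 11.4% against 11.5%, TFAP2 (GCCNNNGGC) in 12.9% against 14.4% and KLF (GGGNGTGGC) in 2.55% against 3.53%. ETS (CCGGAAGT) was in 0.425% against 2.12%. OCT (ATGCAAAT), GRHL (AACNGGTT), ESRRB (TCAAGGTCA) and CEBP (TTGCGCAA) were each in at most 1.65% of the sites, and in 0.961%, 1.17%, 0.209% and 0.173% of the list. None of the words contains another, and a match is a string of letters, not a bound site.

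Part of these differences went with the place of the sites. Among sites more than 2 kb from a start, AP-1 was in 33.5% of the shared sites and in 33.3% of the list, and TEAD in 22.8% and 25%, so neither was more frequent in the shared sites than in all distal peaks of the list. SOX was in 33.2% against 27.9% and GATA in 25.2% against 21.3%. ATATT was in 11.7% (10.3 to 13.2) against 15.3% (14.9 to 15.7), so among distal sites it was less frequent in the shared sites. Against the distal new peaks of the list, which include the shared sites, the direction turned for SOX (38.7% of these peaks) and GATA (32.9%), while AP-1 (23.7%) was more frequent in the shared sites and TEAD (25.3%) was not. In windows with a GC content of 45 to 55%, SOX was in 31.3% against 27.4% of the whole list and GATA in 26% against 21.7%. In these windows ATATT was in 9.99% against 13.9%. The shared sites had lower scores than the list (median 151 against 195.1). Among distal peaks with a score under 150, AP-1 was in 36.9% (33.8 to 40) of the shared sites against 31.8% (30.9 to 32.6) of the list. TEAD was there in 19.6% against 23.7%, and ATATT in 10.9% against 16.6%. For SOX (30.4% against 28.4%) and GATA (23.1% against 22%) the intervals overlapped under that limit.

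The shared sites stood between the new sites of each form for 4 of the 5 words in the plot of motif shares. For GATA the distal shares were 13.9% in sites of SALL4-WT only, 25.2% in shared sites and 36.1% in sites of SALL4-delN12 only. For SOX they were 20.8%, 33.2% and 42.2%, for ATATT 4.99%, 11.7% and 21.4%, and for TEAD 19.6%, 22.8% and 28.1%. AP-1 had another order, with 33.5% in shared sites, above 27.1% in sites of SALL4-WT only and 22.4% in sites of SALL4-delN12 only. For GATA, SOX, ATATT and AP-1 the interval of the shared sites did not overlap that of either other set, and for TEAD it overlapped that of sites of SALL4-WT only. In the narrow GC range GATA was at 14.5%, 26% and 34.5% and ATATT at 5.42%, 9.99% and 18.3%, in the same order. SOX was there at 21.7%, 31.3% and 36.5% and TEAD at 20.3%, 24.3% and 28.1%. In that range the SOX interval of the shared sites (28.9 to 33.8) overlapped that of sites of SALL4-delN12 only (32.7 to 40.5). The TEAD interval of the shared sites overlapped those of both other sets. The day 1 classes differed as well: AP-1 was in 40.3% of sites early in both forms and in 13.9% of sites early in neither, while TEAD was in 20.1% and 32%. Below the median score of all sites AP-1 was in 44.6% and 18.4% and TEAD in 20.3% and 24%, and at or above it AP-1 in 36.3% and 6.96% and TEAD in 20% and 44.3%. ATATT was in 16.8% of sites early in SALL4-delN12 alone and in 5.23% of sites early in SALL4-WT alone. Shared sites at promoters, whose share differed between these classes, had AP-1 in 15.4% and TEAD in 13.7%, and the part of place was not tested.

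**Figure D4:**
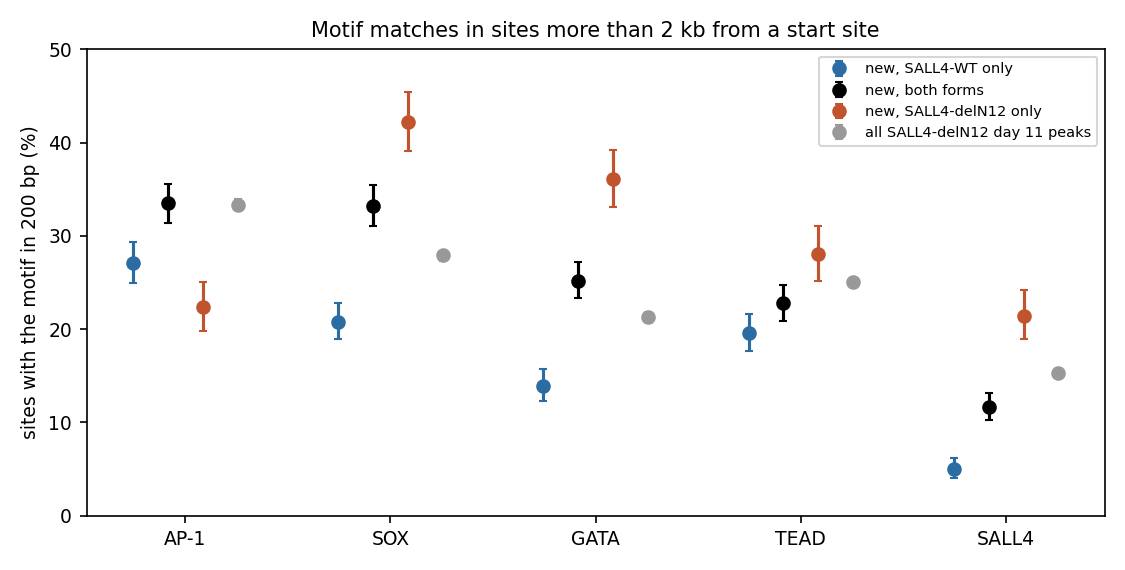
Share of sites more than 2 kb from a start site with a motif word in the central 200 bases (y axis, %), for 5 motifs (x axis) in new sites of SALL4-WT only, of both forms and of SALL4-delN12 only, and in all SALL4-delN12 day 11 peaks. Points are shares and bars exact 95% intervals over sites. The GATA shares were 13.9%, 25.2% and 36.1% in the first 3 sets, and AP-1 was highest, among these 3, in sites of both forms (33.5%).

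The PrE genes with a shared new site within 50 kb were Sall4, Hnf4a and Lama1. A gene was counted when it was the nearest protein-coding gene of a site within 50 kb, which held for 1224 of 21924 genes (5.58%). They were 2 of the 10 PrE transcription factor genes (20%), with the caution above for Sall4, and 1 of the 14 PrE surface and matrix genes (7.14%). Of 22 pluripotency genes 4 had a site (Tdgf1, Dppa2, Tfcp2l1 and Esrrb), of 18 epithelial genes 3 (Krt18, Cldn4 and Ocln) and of 18 mesenchymal genes 2 (Prrx1 and Cdh2). The WNT target list had 2 of 10 (Rnf43 and Nkd1), the BMP targets 1 of 7 (Smad7), the AP-1 genes 1 of 10 (Fos) and the NuRD subunits 1 of 13 (Mbd2). Endothelial, trophoblast, macrophage and blood, neural and muscle genes had none. Sites of SALL4-delN12 only and sites of SALL4-WT only were each next to 1 of the 10 PrE transcription factor genes and 3 of the 14 PrE surface and matrix genes, against 2.48% and 4.7% of all genes. The counts are small, and none of these lists was tested.

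Of the 3 PrE genes beside a shared site, Lama1 and Hnf4a had the larger difference in RNA between day 1 and day 11 with SALL4-delN12, and Sall4 the same difference in both forms (-0.92). RNA is given in FPKM, and changes as differences of log2(FPKM + 1), which understates the change of low genes. Lama1, which encodes a laminin chain of the basement membrane, had 1.31, 2.35, 19 and 50.2 FPKM at days 1, 5, 9 and 11 in SALL4-delN12 cells and 1.3, 1.65, 1.84 and 3.38 in SALL4-WT cells. The change from day 1 to day 11 was 4.47 and 0.93. Its site with the higher score of 2, at chr17:67732061-67732307 in an intron, scored 80.23, 65.48, 57.02 and 167.61 in SALL4-WT cells and 83.87, 223.28, 184.88 and 109.64 in SALL4-delN12 cells. It had a SALL4 peak in both forms and H3K27ac with SALL4-delN12 alone (score 121.55). The PrE lists as a whole, with or without a site, had a median change of 2.06 (10 transcription factor genes) and 1.38 (13 surface and matrix genes) in SALL4-delN12 cells and of 0.17 and 0.72 in SALL4-WT cells. Other lists differed between the forms too, with medians of 1.54 and 0.33 for pluripotency genes and of 1.33 and -1.81 for macrophage and blood genes, which had no shared site, and the part of other cells in the RNA was not tested.

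Cited1, a transcriptional co-activator gene, had 3.79, 16.4, 34.9 and 140 FPKM in SALL4-delN12 cells and 0.888, 1.58, 1.52 and 3.79 in SALL4-WT cells. Its site at chrX:102304971-102305242, 52.9 kb from the start, had low scores in all lists (53.24 to 113.56) and no Cut&Tag peak. Hnf4a, a nuclear receptor gene of endoderm, was near 0 in SALL4-WT cells at all days (at most 0.0447 FPKM) and had 0, 0.0927, 0.675 and 2.02 FPKM in SALL4-delN12 cells. The Hnf4a site at chr2:163532005-163532198 scored 108.55 in SALL4-WT cells and 110.14 in SALL4-delN12 cells at day 11. Klf4, a pluripotency factor gene also active in early endoderm, went from 3.64 to 17.5 FPKM in SALL4-delN12 cells and from 12.1 to 19.9 in SALL4-WT cells, with a site 51.9 kb from its start that had no peak at day 1 in either form. Sall4 itself, whose FPKM include the delivered cDNA, went from 549 to 290 FPKM in SALL4-WT cells and from 809 to 428 in SALL4-delN12 cells.

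Higher RNA at day 11 than at day 1 was more frequent near a shared site than over all genes. At day 1, where this comparison starts, only 294 of the 2121 sites (13.9%) had no peak in either form. Most sites thus had a peak in at least 1 form by then. Of 12925 genes with at least 1 FPKM in 1 of the 9 libraries considered (the 8 SALL4 libraries and a day 0 library of MEFs given another set of factors), 957 were the nearest gene of a site within 50 kb. RNA was at least 1 log2 unit higher at day 11 for 169 of these (17.7%) in SALL4-WT cells, against 9.97% of all genes, and for 146 (15.3%) in SALL4-delN12 cells, against 9.24%. It was at least 1 unit higher in both forms for 90 of them (9.4%), against 4.13% of all genes. RNA was at least 1 unit lower for 67 (7%) against 7.57%, and for 46 (4.81%) against 3.94%. The median change near a site was 0.20 in SALL4-WT cells and 0.13 in SALL4-delN12 cells, against 0.05 and 0.04 over all genes. Genes with a site at their promoter (135 genes) were higher in 28 (20.7%) in either form, and genes near a site with no day 1 peak (137 genes) in 24.1% and 22.6%. Genes near sites of SALL4-delN12 only were higher in 16.9% in SALL4-WT cells and 16.2% in SALL4-delN12 cells, close to the shares near shared sites, and genes near sites of SALL4-WT only in 13.3% and 7.85%.

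Between the forms at day 11, the genes near shared sites held similar numbers in each direction. RNA was at least 1 log2 unit higher in SALL4-delN12 cells for 70 of the 957 genes (7.31%, against 5.89% of all genes) and lower for 78 (8.15%, against 5.7%). The 87 genes with 2 or more sites were higher in 4 (4.6%) and lower in 14 (16.1%), with a median of -0.24. Near sites of SALL4-delN12 only the shares were 12.6% higher and 5.71% lower, and near sites of SALL4-WT only 3.09% higher and 10% lower. The day 11 libraries are 1 culture each, so the spread between cultures is not known.

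**Figure D5:**
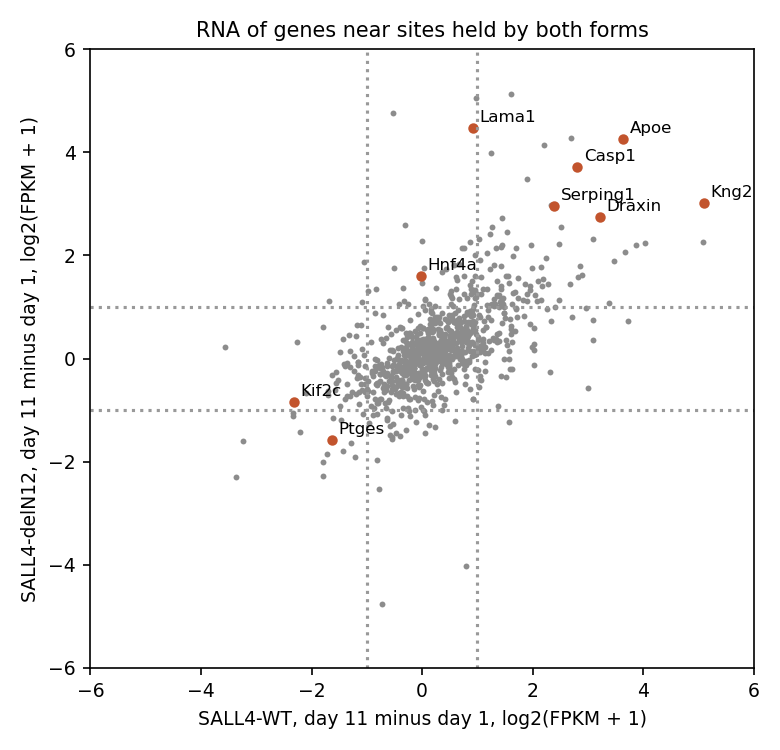
Change in RNA from day 1 to day 11, as a difference of log2(FPKM + 1), in SALL4-WT (x axis) and SALL4-delN12 cells (y axis) for the 957 genes near a shared new site. Points are genes, dotted lines mark a change of 1 unit, and coloured points are genes named in the text. 90 genes lie above 1 in both forms, Lama1 and Hnf4a above 1 in SALL4-delN12 cells alone.

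Among genes with a site within 10 kb of their start, the largest positive changes seen in both forms were those of Apoe, Casp1, Kng2, Draxin and Serping1. Apoe, a lipid carrier made by macrophages and by visceral endoderm, had 149, 725, 1226 and 1863 FPKM in SALL4-WT cells and 96.4, 625, 965 and 1870 in SALL4-delN12 cells, so the forms ended at like levels. Its site at chr7:19698995-19699352 covered the promoter, had no peak at day 1 and scored 249.88 and 125.58 at day 5. Casp1, the caspase of the inflammasome, went from 0.849 to 11.9 FPKM and from 0.672 to 21. Its promoter site at chr9:5298290-5298506 had SALL4 and H3K27ac peaks in SALL4-delN12 cells alone. Neither site had a peak at day 1 in either form.

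Kng2, a kininogen gene, was higher at day 11 in both forms and more so with SALL4-WT, from 1.79 to 94.9 FPKM against 0.971 to 14.9. Its site at chr16:23032030-23032459, 3.14 kb upstream, scored 453.8 in SALL4-delN12 cells and 268.29 in SALL4-WT cells at day 11, in lists not scaled to each other. Serping1, which encodes the inhibitor of complement C1, went from 71.3 to 377 FPKM in SALL4-WT cells and from 8.25 to 71 in SALL4-delN12 cells, and Draxin, a secreted guidance and WNT-modulating protein gene, from 1.52 to 22.4 and from 0.707 to 10.4.

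Negative changes were smaller, with a value in the form that changed less of -1.58 for Ptges, -0.93 for Ap1s1, -0.87 for Mt1 and -0.85 for Kif2c. Ptges, the prostaglandin E synthase gene, went from 249 to 79.6 and from 120 to 39.2 FPKM, and Mt1, a metallothionein gene, from 558 to 304 and from 478 to 248. Ap1s1, a clathrin adaptor subunit unrelated to the AP-1 transcription factors, went from 128 to 44.7 and from 108 to 55.9. Kif2c, a mitotic kinesin gene, went from 11.6 to 1.53 FPKM in SALL4-WT cells and from 10.5 to 5.38 in SALL4-delN12 cells.

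No gene had more than 3 shared sites within 50 kb of a start. Genes with 3 sites included H3f3a, which encodes histone H3.3, Nek6, a mitotic kinase, and Zcchc14, a zinc finger protein gene. The fifth place was a tie among genes with 2 sites, of which 9530068E07Rik came first by name. Nek6 went from 22.6 to 41.9 FPKM in SALL4-WT cells and from 38.9 to 43.2 in SALL4-delN12 cells, and Zcchc14 from 8.14 to 15.3 and from 11.7 to 16.3. H3f3a, whose near-identical copies in the genome can share reads, changed by 0.02 and 0.31.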

How the data were processed

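Per the labels, reads were trimmed with Trim Galore 0.6.4. The authors mapped the ATAC-seq and Cut&Tag reads to mm10 with Bowtie2 2.4.5, filtered them with SAMtools 1.16.1, called peaks with MACS 1.4.2 and deposited 1 list per library (Cut&Tag replicates merged) with a score per peak, which grows as its p-value falls; the lowest score was 50. For RNA-seq they mapped reads with HISAT2 2.2.1 and deposited FPKM values from StringTie 2.2.1. Read numbers are unknown, and 8 FPKM columns of other samples were not used.

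Overlaps, shares with exact binomial 95% intervals, words in 200 bases (genome of build GRCm38, on which every peak of all 21 chromosomes fitted), nearest GENCODE starts and log2(FPKM + 1) differences were computed in Python 3.11.15 with pandas 2.3.3 and SciPy 1.17.1, after the overlap and word counts had been tested on simulated data. Genes named are those of PrE lists with a site within 100 kb, those with most sites, and the 5 largest positive and negative RNA changes within 10 kb with at least 5 FPKM; some of these are not reported here. The sites and lists were chosen with earlier results of these data known. Alternatives were the score minimum, overlap, MEF distance, promoter and motif windows, and RNA settings.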

Additional observations from a re-analysis of the deposited data

Results flagged for a closer look

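For 2 of the genes named, the difference in RNA between day 1 and day 11 had opposite signs in the 2 forms, with small values in at least 1 form. Hnf4a changed by 1.60 on the log2(FPKM + 1) scale in SALL4-delN12 cells and by -0.02 in SALL4-WT cells, where it was near 0 at all days. 9530068E07Rik changed by -0.22 in SALL4-delN12 cells and by 0.16 in SALL4-WT cells. Each value rests on 1 library a day, and the difference between the forms was not tested.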

How the results depend on the processing

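With a score minimum of 50 in place of 100 the rule gave 4482 sites and with 200 it gave 561, while the other 3 rules for members kept the number within 1.5 times. Under the minimum of 50, the share with a day 1 peak in SALL4-delN12 cells was 72.3%, the day 5 shares were 89.6% (SALL4-WT) and 83.9% (SALL4-delN12), SALL4 peaks in SALL4-delN12 cells were on 67% and H3K27ac peaks there on 60.3%, promoters made up 9.85%, and GATA and TEAD words were in 20.8% and 19.7%. Under the minimum of 200, the day 1 and day 5 shares in SALL4-delN12 cells were 85.2% and 95.2%, SALL4 peaks were on 83.2% (SALL4-WT) and 87% (SALL4-delN12), H3K27ac peaks on 25.8% and 77.2%, promoters made up 5.54%, and GATA, SOX, AP-1 and TEAD words were in 28.6%, 37.1%, 26.6% and 25%. Shares in lists of SALL4-delN12 cells thus moved with the score of that form's day 11 list, which chose the sites. With an overlap of at least 0.5 of the site, the day 1 shares were 51.1% (SALL4-WT) and 74.3% (SALL4-delN12) and the day 5 share in SALL4-delN12 cells 89.1%. With Cut&Tag scores of at least 100, SALL4 peaks were on 59.1% and 60.1%, in the reverse order of the forms, and H3K27ac peaks on 11% and 47.9%. Promoters within 500 bp made up 5.67%. In windows of 50 bases, which hold fewer words by construction, GATA, SOX, AP-1, TEAD and ATATT were in 5.43%, 8.74%, 11.5%, 6.62% and 2.22%, and in whole peaks in 32.8%, 41.4%, 37.7%, 27.9% and 18.2%. A pseudocount of 0.1 moved the median RNA change in SALL4-WT cells to 0.26 and no filter to 0.13.

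Other settings were chosen after seeing the data. In members with a score under 150, SALL4 peaks were on 74.3% and 67.6%, H3K27ac peaks in SALL4-delN12 cells on 59.2%, and GATA, SOX, AP-1 and TEAD words in 22.3%, 28.4%, 34.7% and 19.2%. More than 2 kb from a start, SALL4 peaks in SALL4-delN12 cells were on 77.5%. At a GC content of 45 to 55%, TEAD and ATATT words were in 24.3% and 9.99%. The causes of these shifts were not tested. Of the 120 values computed under another setting, 60 stayed within the interval or the 1.5-fold range of the value in the text. With 1 library a condition and unknown read numbers, a site without a peak is one that was not detected. Each form has 1 library a day, and an analysis of the forms paired by day was not run.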
